A study of Arabidopsis thaliana with 6 samples.

Results

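The *DIN* (dark-inducible) genes and their relatives of the sugar and carbon starvation response were followed by RNA sequencing of whole *Arabidopsis thaliana* seedlings. The set holds 9 genes, *DIN1*, *DIN2*, *DIN6* (*ASN1*), *DIN10*, *DIN11*, *BCAT2*, *IVD*, *MCCA* and *GPT2*, out of 30865 genes in the deposited count table. They were chosen by locus, with the difference between the mutant and wild type already known for these same libraries, so their own differences are given below as a description and test nothing. The libraries came from 3 samples of the nup50c mutant and 3 of wild type (the accession Col-0), all from untreated seedlings 9 days old, grown on half-strength Murashige and Skoog medium with 1% sucrose. NUP50C belongs to the nuclear pore complex. The sources used here do not say what kind of mutation it carries, and the mutant's sample numbers were read as replicates although such numbers can also name alleles. Libraries held 33273007 to 36984121 counts in nup50c and 35116694 to 39574236 in wild type. The *NUP50C* transcript was at 11.3 ± 2.00 CPM in nup50c, against 31.7 ± 3.53 CPM in wild type (SD, n = 3 each). CPM are counts scaled to library size, with TMM factors that set the libraries to a common level.

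Plants that run short of sugar, in prolonged darkness for example, activate the kinase SnRK1 and basic leucine zipper (bZIP) transcription factors, and genes for breaking down sugars, amino acids and other reserves are induced. Sugar represses the same genes. *GPT2* is the exception in the set, a gene known to be induced when sugars accumulate. The *DIN* genes were named in studies of darkened leaves, and many also follow the light-dark cycle. The medium of all 6 samples contained sucrose.

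*DIN1*, *DIN10* and *MCCA* were higher in each nup50c library than in any wild-type library, and *BCAT2* and *GPT2* were lower in each. Of the higher genes *DIN10* had the largest log2 fold change (0.74), at 1113 ± 145 CPM in nup50c and 666 ± 75.0 CPM in wild type (SD, n = 3 each). *GPT2*, known to be sugar-induced, had 0 counts in nup50c and 142 to 314 in wild type. Its deposited FPKM in nup50c were 0.439, 0 and 1.10, so the zeros are not read as a complete loss. Groups that did not overlap were common among the genes tested, at 23.4%, with 11.7% higher and 11.6% lower in nup50c. *DIN2*, *DIN6*, *DIN11* and *IVD* overlapped between the groups. A gene is called here where its p in a fit over all genes, adjusted after Benjamini and Hochberg, is under 0.05. By the edgeR quasi-likelihood test 2 of the 9 genes carry that mark, *DIN10* (higher) and *GPT2* (lower), where 2.28% of 21158 genes do, 1.12% higher and 1.17% lower. By DESeq2 they are *DIN1*, *DIN10* and *MCCA* (higher) and *GPT2* (lower), where 6.04% of all genes are called, 3.12% higher and 2.92% lower. By limma on log2(FPKM + 1) they are *DIN10* and *GPT2*, where 2.46% of 21362 genes are called, 1.2% higher and 1.26% lower. *GPT2* passed the filter on low counts through the wild-type libraries, and it lost its mark on log2(FPKM + 0.1) and under other settings given below. The set was chosen on this comparison, so these marks only describe it and nothing is read from them. In whole seedlings fewer cells of a type and less RNA per cell cannot be told apart.

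Sequence upstream of the genes is shown for those on which the results turn and for the G-boxes, the motif CACGTG bound by bZIP factors. All 9 windows were read from the 250 bases before the annotated start in the TAIR10.1 genome and annotation of RefSeq, on the strand of the gene. The first is that of *DIN10*, chr5:6833314-6833563 on the plus strand, in which capitals mark ACGT, the core of bZIP sites.
*DIN10*: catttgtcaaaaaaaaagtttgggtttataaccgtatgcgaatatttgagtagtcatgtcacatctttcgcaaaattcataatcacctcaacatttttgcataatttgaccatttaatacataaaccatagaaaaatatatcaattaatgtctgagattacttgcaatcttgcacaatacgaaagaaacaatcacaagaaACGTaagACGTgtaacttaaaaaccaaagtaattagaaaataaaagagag
The second is that of *GPT2*, chr1:22824164-22824413 on the plus strand, with AATATCT, the end of the evening element of clock-regulated genes, in capitals.
*GPT2*: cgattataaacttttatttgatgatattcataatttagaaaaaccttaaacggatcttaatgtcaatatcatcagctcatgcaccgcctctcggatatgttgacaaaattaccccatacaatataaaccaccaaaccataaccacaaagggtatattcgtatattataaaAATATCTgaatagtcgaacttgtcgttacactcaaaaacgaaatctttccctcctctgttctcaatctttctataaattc
The G-boxes of *DIN6* (chr3:17441581-17441610, minus strand) and *DIN11* (chr3:18393508-18393537, plus strand) are shown in capitals with 12 bases on either side.
*DIN6*: ttgtcgtgataaCACGTGtacggctctaaa
*DIN11*: caaactaacttaCACGTGatgataaacatt
Both strands were searched. ACGT, which each G-box also contains, occurred in 4 of the 9 windows (*DIN6*, *DIN10*, *DIN11* and *BCAT2*) and in 44.1% of the 27443 windows of this length upstream of protein-coding genes. CACGTG occurred in 2 of the 9 and in 6.49% of all. TATCCA, a motif of sugar-responsive promoters, was found in *DIN6* alone among the 9 and in 13.6% of all windows, AATATCT in *GPT2* alone among the 9 and in 10% of all. ACTCAT, the bZIP motif of the proline dehydrogenase gene, was in 0 of the 9 windows and in 12.3% of all. In *DIN10* the ACGT motifs began 50 and 43 bases before the start, while the G-boxes of *DIN6* and *DIN11* began 167 and 227 bases before it. A match to these letters describes the window and is not evidence of binding.

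Per transcript length, *DIN10* was by far the most abundant of the set. In nup50c its FPKM (fragments scaled to transcript length and library size, as the authors deposited them) averaged 362 ± 42.0, followed by *DIN1* at 50.8 ± 10.9, *MCCA* at 28.5 ± 4.81, *DIN6* at 23.8 ± 5.49 and *IVD* at 19.2 ± 0.829 (SD, n = 3 each). In wild type the order of the upper genes was *DIN10* at 214 ± 22.4, *DIN1* at 31.9 ± 2.27, *DIN6* at 20.5 ± 1.93, *MCCA* at 20.1 ± 2.11 and *IVD* at 18.1 ± 1.37 FPKM. *MCCA* and *DIN6* lay within each other's SD in both groups. *DIN2*, *DIN11* and *BCAT2* formed a lower tier at 3.98 ± 1.35, 2.37 ± 1.16 and 2.08 ± 0.631 FPKM in nup50c, against 3.99 ± 1.49, 3.59 ± 1.73 and 3.96 ± 0.714 in wild type, and their order was not clear of that spread. *GPT2* was at 0.514 ± 0.555 FPKM in nup50c and 3.12 ± 1.36 in wild type, where it lay within the spread of these 3 genes.

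**Figure D1:**
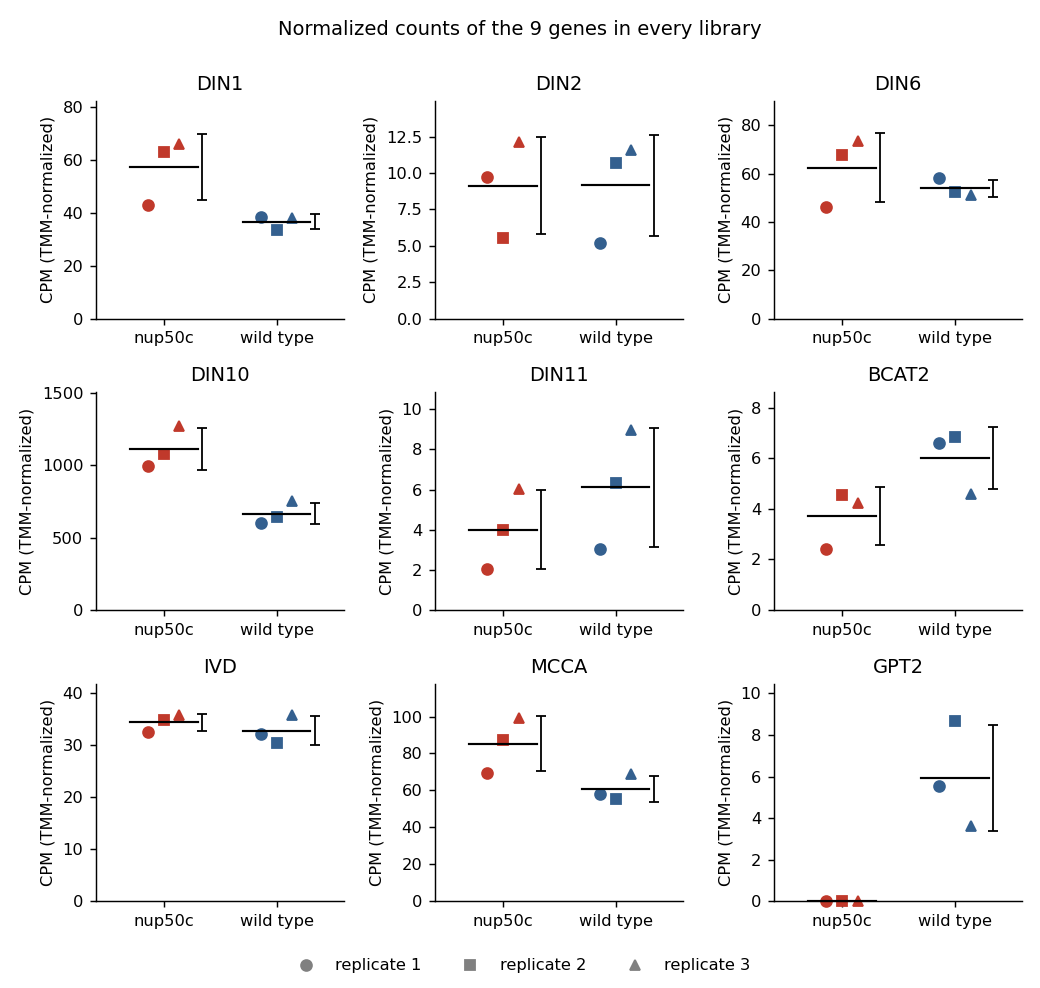
TMM-normalized CPM of each gene in every library, nup50c in red and wild type in blue, with symbols for the replicate number, a line for the mean and a bar for the SD (n = 3). *DIN1*, *DIN10* and *MCCA* lie higher in all 3 nup50c libraries, *BCAT2* and *GPT2* lower, and the other 4 genes overlap.

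*DIN10* encodes a member of the raffinose synthase family, which handles galactosyl sugars. It was measured at 991, 1075 and 1273 CPM in the nup50c libraries, against 603, 645 and 749 CPM in wild type. All 3 nup50c libraries thus lay above the highest wild-type library. The log2 fold change was 0.74 (SE 0.11), a 1.67-fold higher level in nup50c. Leaving out each library in turn gave log2 fold changes of 0.63 to 0.83. The edgeR call of *DIN10* was lost without nup50c replicate 2 or wild-type replicate 1 or 2, with an adjusted p of up to 0.0925. Its locus, AT5G20250, spans 6833564 to 6836862 of chromosome 5 (plus strand). AT5G20260, which overlaps it on the other strand, had 0 counts in all libraries, with 0 to 0.34 FPKM in nup50c and 0 FPKM in wild type. The libraries kept strand, per the labels' protocols, and the sources used here do not say whether counting used it.

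*DIN1* (also *SEN1*), encoding a protein with a rhodanese-like domain, is a marker of darkness and senescence. Its levels were 42.9, 62.7 and 65.9 CPM in nup50c, against 38.3, 33.3 and 37.9 CPM in wild type. Replicates 2 and 3 of nup50c were clearly above the wild-type libraries, and replicate 1 only slightly. The log2 fold change was 0.65 (SE 0.16), and 0.82 without nup50c replicate 1. Its locus, AT4G35770, spans 16944878 to 16946266 of chromosome 4 (plus strand).

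*DIN6*, better known as *ASN1*, makes asparagine, a nitrogen-rich transport form that plants use when carbon is scarce. It stood at 46.2, 67.5 and 73.6 CPM in nup50c, against 58.0, 52.4 and 51.2 CPM in wild type. The nup50c libraries lay on both sides of the wild-type ones, with replicate 1 the lowest of all 6. The log2 fold change was 0.21 (SE 0.17). Its locus, AT3G47340, spans 17437840 to 17441431 of chromosome 3 (minus strand). AT3G47341 overlaps it and its upstream window on the other strand and had 0 counts in all libraries.

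*DIN2*, encoding a beta-glucosidase, did not separate the groups, at 9.76, 5.54 and 12.1 CPM in nup50c and 5.17, 10.7 and 11.6 CPM in wild type. Its log2 fold change was -0.01 with an SE of 0.38, so the spread within either group was far larger than the difference. *DIN11*, encoding an oxygenase that uses 2-oxoglutarate and iron, was at 2.03, 3.99 and 6.01 CPM in nup50c, against 3.04, 6.35 and 8.96 CPM in wild type. Both groups spanned a wide range and overlapped (log2 fold change -0.61, SE 0.50). Both are on the plus strand of chromosome 3, *DIN2* (AT3G60140) at 22216540 to 22220824 and *DIN11* (AT3G49620) at 18393747 to 18397050.

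**Figure D2:**
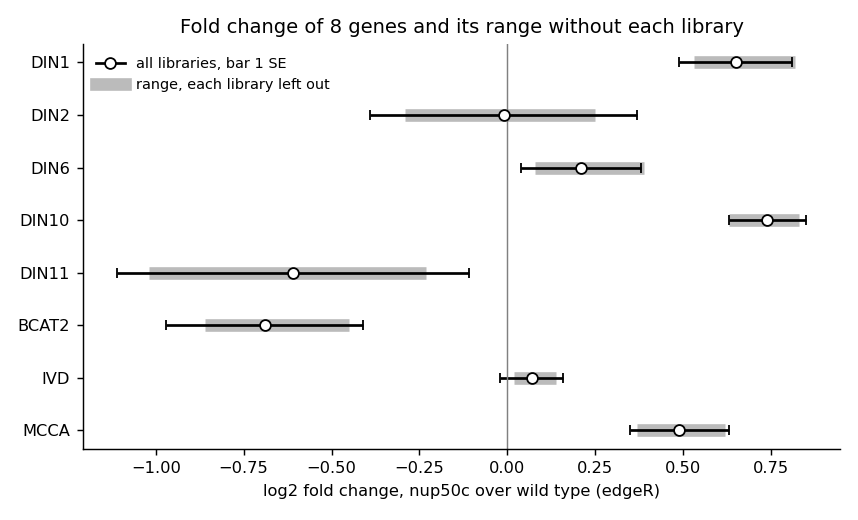
The edgeR log2 fold change (nup50c over wild type, horizontal axis) of 8 genes with 1 SE as bars, and in grey its range when each library was left out in turn. *GPT2* is not drawn because all its nup50c counts are 0. The grey ranges of *DIN1*, *DIN6*, *DIN10*, *IVD* and *MCCA* lie above 0, those of *DIN11* and *BCAT2* below it, and that of *DIN2* spans it.

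*IVD* and *MCCA* act in the breakdown of branched-chain amino acids, which feeds electrons to respiration when sugar is short. *BCAT2* encodes an aminotransferase for leucine, isoleucine and valine, and whether it acts in the same route was not tested. It was measured at 2.41, 4.53 and 4.23 CPM in nup50c, against 6.59, 6.85 and 4.59 CPM in wild type. The groups did not overlap, but nup50c replicate 2 and wild-type replicate 3 nearly met. The log2 fold change was -0.69 (SE 0.28). With libraries put on a common scale, the ratio of counts to FPKM varied 1.38-fold between libraries for *BCAT2* and by at most 1.05-fold for the other genes above 0. Over 19959 genes above 0 in all libraries, this variation had a median of 1-fold and a 95th percentile of 1.25-fold. By mean FPKM *BCAT2* in nup50c was at 0.525 times its wild-type level, and by the edgeR fit of counts at 0.62 times.

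*MCCA* encodes the biotin-carrying subunit of methylcrotonyl-CoA carboxylase, which acts on a later product of leucine. Its levels were 69.4, 87.3 and 99.0 CPM in nup50c, against 58.0, 55.6 and 68.7 CPM in wild type. Replicate 1 of nup50c and wild-type replicate 3 were nearly level, and the other libraries lay further apart. The log2 fold change was 0.49 (SE 0.14), and 0.62 without nup50c replicate 1. The transcript of *IVD*, isovaleryl-CoA dehydrogenase, the enzyme just before that carboxylase in leucine breakdown, was at 32.5, 34.8 and 35.7 CPM in nup50c, against 32.0, 30.4 and 35.7 CPM in wild type. Its highest library was 1.17 times its lowest, the narrowest range of the 8 genes above 0, and its log2 fold change was 0.07 (SE 0.09). *BCAT2* (AT1G10070) and *MCCA* (AT1G03090) are on the plus strand of chromosome 1, at 3288087 to 3290471 and 739544 to 744184, and *IVD* (AT3G45300) is on the minus strand of chromosome 3, at 16621452 to 16625043. AT1G10090 overlaps *BCAT2* on the other strand and had 968 to 1237 counts in a library of nup50c and 867 to 1031 in one of wild type. AT1G03100 overlaps *MCCA* likewise, at 169 to 349 counts in nup50c and 138 to 263 in wild type, and so does AT1G04157, at 0 to 12 counts in nup50c and 0 to 5 in wild type.

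Of 20 other genes listed for branched-chain amino acid breakdown and its aminotransferase family, 0 were called by edgeR or by DESeq2, and 4 had an unadjusted p under 0.05. The share of all genes under that unadjusted p is not given here, so nothing is read from such counts, here or below. For these 20 genes the log2 fold changes were as follows. Their median log2 fold change was 0.04, between -0.32 and 0.27, beside a median of -0.00 over all genes tested. *ALDH6B2*, of the valine branch, stood at 0.21 (edgeR adjusted p = 0.145). *BCAT4*, an aminotransferase of that family that acts in methionine chain elongation, had one of -0.17 (adjusted p = 0.167). *DIN3* and *DIN4*, subunits of the ketoacid dehydrogenase that follows the aminotransferases, had values of 0.26 (adjusted p = 0.239) and 0.14 (adjusted p = 0.676). *MCCB*, encoding the other subunit of the carboxylase, averaged 52.3 ± 4.05 CPM in nup50c and 45.7 ± 2.40 CPM in wild type (log2 fold change 0.20, adjusted p = 0.287). *BCAT1*, which lies next to *BCAT2*, had one of 0.07 (adjusted p = 0.838).

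**Figure D3:**
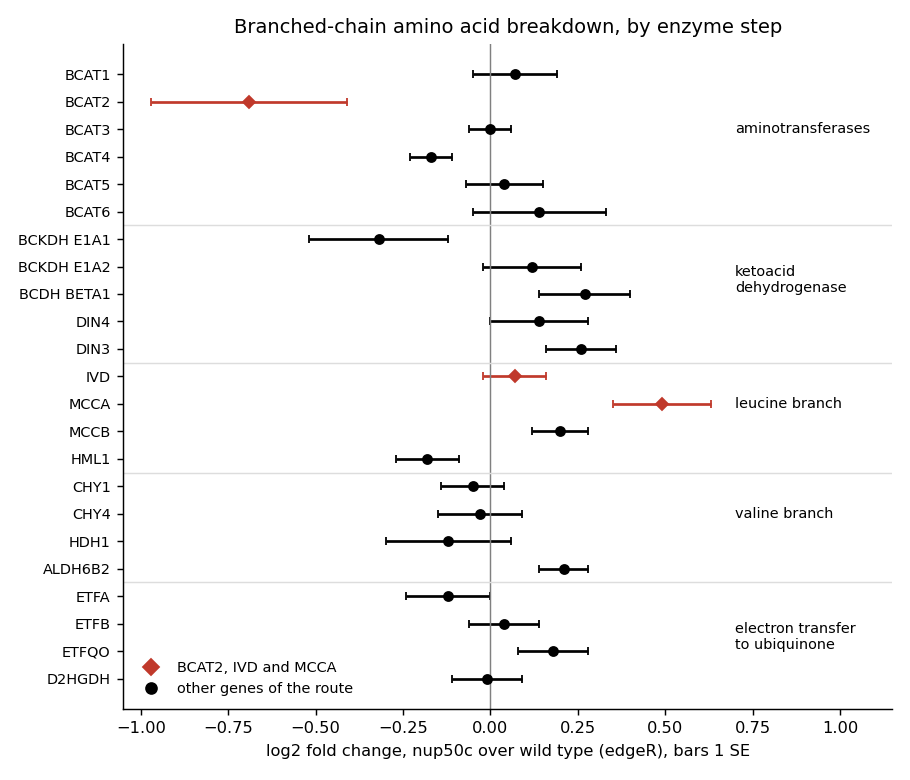
The edgeR log2 fold change (nup50c over wild type, horizontal axis, bars 1 SE) of the genes of branched-chain amino acid breakdown and its aminotransferase family, grouped by enzyme step from the aminotransferases at the top to electron transfer at the bottom. *BCAT2* at -0.69 and *MCCA* at 0.49 lie furthest from 0.

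*GPT2* encodes a translocator that brings glucose 6-phosphate into plastids. The count table listed 0 in all nup50c libraries, against 195, 314 and 142 counts in wild type. The FPKM table gave another picture, with 0.439, 0 and 1.10 FPKM in nup50c, against 2.92, 4.58 and 1.88 FPKM in wild type. At the ratio of counts to FPKM that *GPT2* had in wild type, the nup50c FPKM would match 28, 0 and 69 counts. In both tables every nup50c library was below every wild-type library. No fold change is given from the counts, since a 0 that stands beside an FPKM above 0 can be a failed estimate. *GPT2* passed the filter on low counts through the wild-type libraries. On the scale of log2(FPKM + 1) the difference was -1.46 (SE 0.32). On log2(FPKM + 0.1) it was -2.92 (SE 0.84). With counts of 0 filled from the FPKM, an alternative added after the data were seen, the log2 fold change was -2.62 (SE 1.16). Its locus, AT1G61800, spans 22824414 to 22826902 of chromosome 1 (plus strand) and overlaps no other annotated gene.

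**Figure D4:**
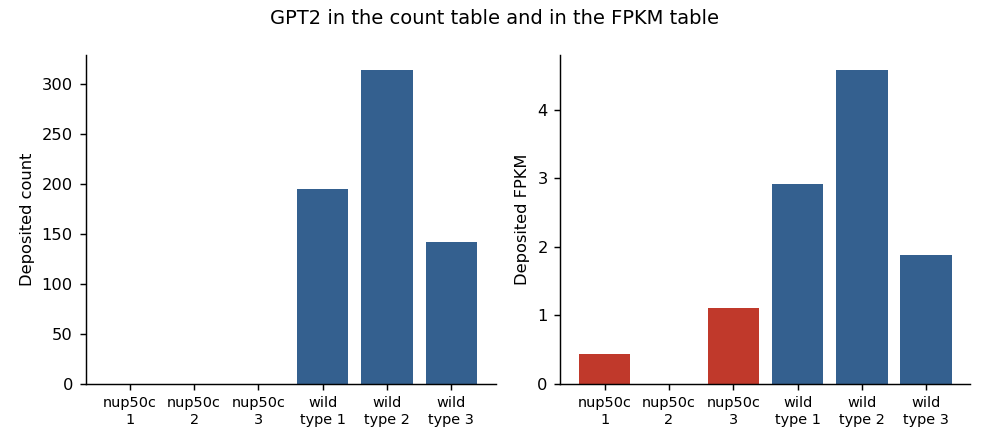
*GPT2* in each library, as counts in the left panel and as FPKM in the right panel, nup50c in red and wild type in blue. The counts are 0 in the 3 nup50c libraries, while 2 of these libraries have an FPKM above 0, at 0.439 and 1.10.

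Among the translocators of the same family, *PPT2*, which carries phosphoenolpyruvate, fell to 12.3 ± 1.33 CPM in nup50c, against 24.0 ± 4.14 CPM in wild type (log2 fold change -0.96, edgeR adjusted p = 0.0151). Its call was lost without nup50c replicate 1 or 2 or wild-type replicate 1 or 2. *GPT1*, the other glucose 6-phosphate translocator, differed by -0.18 on the log2 scale (adjusted p = 0.203), and 4 of the 5 genes did not pass. Of 5 other sugar-induced genes tested, 0 were called by edgeR or DESeq2, and 1 had an unadjusted p under 0.05. The log2 fold change was -0.28 for *SUS1*, a sucrose synthase (adjusted p = 0.299), and for *APL4*, of starch synthesis, it was 0.42 (adjusted p = 0.349). The FPKM of *APL4* ran the other way, at 4.05 ± 0.145 in nup50c and 4.40 ± 0.155 in wild type, so no direction is given for it. *BAM5*, the sixth of that list, was not tested.

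Beyond the 9 genes, 133 other genes were examined in 12 lists, and 128 of them were tested. Some lists hold genes of the sugar and starvation response, others relatives of the 9 genes that need not belong to it. edgeR called 11 of them (8.59%, beside 2.28% of all genes tested), 7 higher and 4 lower. The lists were written with earlier results of these libraries known. *RS2*, a raffinose synthase relative of *DIN10*, rose to 644 ± 57.5 CPM in nup50c, against 357 ± 66.9 CPM in wild type (log2 fold change 0.85, adjusted p = 0.0343). The call of *RS2* was lost without nup50c replicate 1, 2 or 3 or wild-type replicate 2. The other 3 relatives did not pass. *ASN2*, a relative of *DIN6*, rose by 0.36 (SE 0.06, adjusted p = 0.0226), while *ASN3* differed by 0.05 on that scale (adjusted p = 0.845).

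Of 14 other dark and starvation genes, 2 rose, 1 fell and 11 did not pass, at a median log2 fold change of -0.00. *DRM1*, a dormancy-associated gene, rose to 253 ± 29.6 CPM in nup50c, against 156 ± 14.3 CPM in wild type (log2 fold change 0.70, edgeR adjusted p = 0.0111). *UGE1*, a UDP-glucose epimerase, rose by 0.39 (adjusted p = 0.0448). *PPDK*, pyruvate orthophosphate dikinase, fell to 67.4 ± 6.76 CPM in nup50c, against 129 ± 15.9 CPM in wild type (log2 fold change -0.94, adjusted p = 0.00532). *DIN9*, a phosphomannose isomerase, differed by -0.25 on the log2 scale (adjusted p = 0.671). *PPDK* kept its call without each library in turn, *DRM1* lost it without nup50c replicate 2 or wild-type replicate 1, and *UGE1* whichever library was left out.

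Of 18 other amino acid breakdown genes, 2 rose, 2 fell and 14 did not pass. *PRODH1*, proline dehydrogenase, rose to 413 ± 42.4 CPM in nup50c, against 258 ± 35.7 CPM in wild type (log2 fold change 0.67, edgeR adjusted p = 0.0255), and *ALDH5F1*, of the GABA shunt, rose by 0.62 (adjusted p = 0.0374). *HPD* and *TAT7*, both of tyrosine breakdown, fell by 0.70 (adjusted p = 0.00586) and 0.61 (adjusted p = 0.0269) on the log2 scale. *HPD* was called without each library in turn. *PRODH1* lost its call without nup50c replicate 2 or 3 or wild-type replicate 1 or 2, with an adjusted p of up to 0.117. *ALDH5F1* kept its call only without wild-type replicate 2 (otherwise adjusted p up to 0.131), and *TAT7* only without nup50c replicate 3 (otherwise up to 0.144).

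Among the regulators, of 15 genes for SnRK1 subunits and bZIP factors of groups C and S1, 0 were called by edgeR and 2 by DESeq2, and 6 had an unadjusted p under 0.05. *BZIP2* (log2 fold change 0.27, adjusted p = 0.0631) and *BZIP53* (0.33, adjusted p = 0.0709) had the smallest edgeR p. The catalytic subunits *KIN10* and *KIN11* had 0.03 (adjusted p = 0.904) and 0.06 (adjusted p = 0.839). Of 20 sugar transporter and sensing genes, *TST1*, a sugar carrier of the vacuole membrane, rose by 0.44 (SE 0.07, adjusted p = 0.0182), and the other 19 did not pass, *SWEET1* having -0.51 (adjusted p = 0.0619). The call of *TST1*, like that of *ASN2*, was lost without nup50c replicate 2, wild-type replicate 1 or wild-type replicate 2. Autophagy, which recycles cell contents in starvation, had 0 of 20 genes called by edgeR, 2 by DESeq2 and 6 with an unadjusted p under 0.05. *ATG8G* (-0.82, adjusted p = 0.0516) and *ATG8I* (-0.34, adjusted p = 0.0873) came closest. Among 3 sulfurtransferase relatives of *DIN1* tested, 0 were called by edgeR or DESeq2 and 2 had an unadjusted p under 0.05, *STR18* having -0.37 (adjusted p = 0.233) and *STR14* -0.18 (adjusted p = 0.190). Among 5 beta-glucosidase relatives of *DIN2*, 3 were not tested and 0 were called by edgeR or DESeq2, with 0 at an unadjusted p under 0.05. *BGLU33* had 0.13 (adjusted p = 0.747) and *BGLU28* 2.29 (adjusted p = 0.494). The counts of *BGLU28* were 0 in 2 wild-type libraries, while its FPKM ran the other way, at 1.77 ± 0.111 in nup50c and 2.78 ± 0.477 in wild type, so no direction is given for it.

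**Figure D5:**
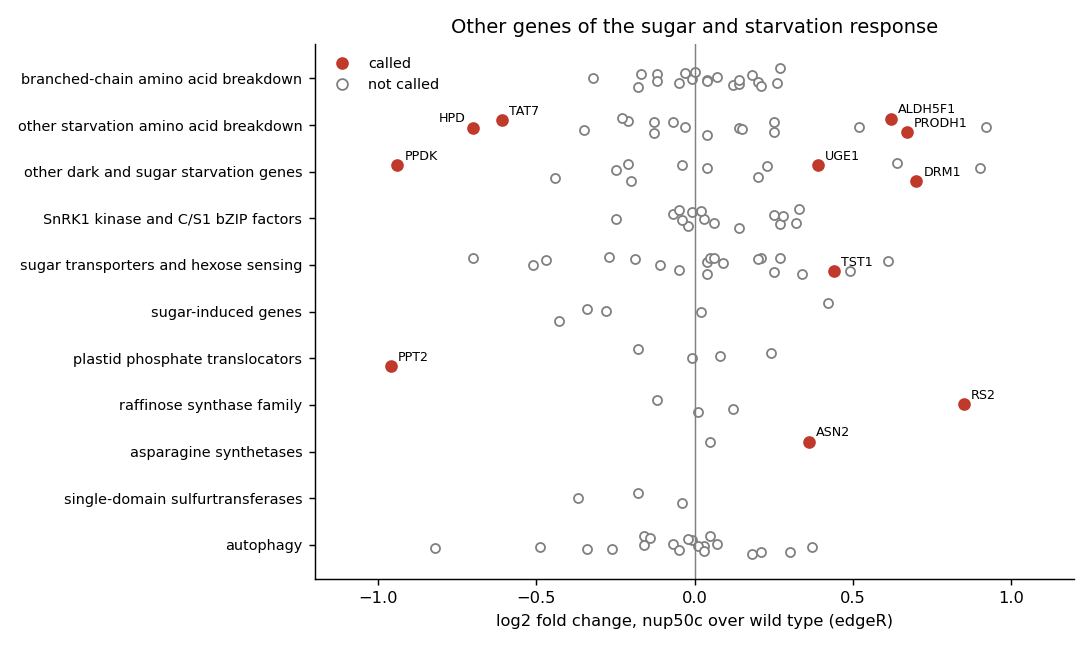
The edgeR log2 fold change (nup50c over wild type, horizontal axis) of the other genes tested, 1 row a list and 1 point a gene, with called genes filled and named. Not drawn are *SAG13*, at -2.48, and the beta-glucosidases; vertical scatter within a row carries no meaning.

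Within nup50c the genes varied with the library. Replicate 1 was the lowest nup50c library for 7 of the 8 genes above 0 in all libraries, all but *DIN2*, and replicate 3 the highest for 7, all but *BCAT2*. Over 19959 genes above 0 in all libraries, replicate 1 was the lowest in 32.4% and replicate 3 the highest in 36.2%. On the second principal component nup50c replicate 3 lay at -83.6 and the other libraries between -4.9 and 31.5. Without it the log2 fold change was 0.63 for *DIN10*, 0.53 for *DIN1* and 0.37 for *MCCA*. *DIN11* moved to -1.02 and *DIN2* to -0.26.

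By Pearson correlation of log2 CPM over the 6 libraries, among 19958 other genes above 0 in all of them, the gene most like *MCCA* was *MCCB* (r = 0.994). For *DIN1* it was *UPL2*, a ubiquitin ligase (r = 0.997), for *DIN6* AT3G14280 (r = 0.994) and for *DIN2* AT4G16540 (r = 0.994). For *DIN10* it was AT4G39050, a kinesin (r = 1.000), for *DIN11* *GYRB3* (r = 0.998), for *BCAT2* AT1G67350 (r = 0.994) and for *IVD* *ZIFL2* (r = 0.990). With only 6 libraries such values are common, 20 to 269 genes passing 0.95 for each gene named. The correlation ignores the size of a difference. The log2 fold change was 0.18 for AT4G39050 (edgeR adjusted p = 0.193), against 0.74 for *DIN10*, and 0.20 for *MCCB*, against 0.49 for *MCCA*.

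Other transcripts also differed between nup50c and wild type, and their part in the results was not tested. Of 9 clock genes that report time of day, *CCA1* (log2 fold change -1.50) and *LHY* (-1.60), of the morning, fell, and *TOC1* (0.71) and *ELF3* (0.70), of the evening, rose (edgeR adjusted p = 0.000833, 0.00208, 0.00951 and 0.00299). The other 5 were not called. Of all genes tested, edgeR called 2.28% and DESeq2 6.04%, the shares beside which the counts of this paragraph stand. *LUX* had 0.37 (edgeR adjusted p = 0.118), *ELF4* 0.16 (0.452), *GI* -0.04 (0.893) and *PRR7* -0.23 (0.386). The counts of *PRR9* gave 0.40 (adjusted p = 0.921). Its FPKM ran the other way, at 0.673 ± 0.198 in nup50c and 1.11 ± 0.322 in wild type, so no direction is given for it. The summed level of the 9 clock genes was 176 to 181 FPKM in nup50c and 183 to 193 in wild type. This sum joins genes that fell with genes that rose, so no steady level is read from it. The sources used here give no harvest times, so time of day at harvest and genotype cannot be told apart. Leaf senescence markers were lower in sum, at 18.4 to 19.9 FPKM in nup50c and 27.6 to 39.8 in wild type, with *SAG12* at 0 in all libraries, 1 of 4 tested called by edgeR and 2 by DESeq2 (*NAP*, -1.41, edgeR adjusted p = 0.0142, lost without replicate 1 or 2 of either group) and *ORE1* at -0.76 (adjusted p = 0.0596). Both shoot and root were present. The 5 shoot markers summed to 12900 to 14093 FPKM in nup50c and 13045 to 13744 in wild type, 1 of them called by edgeR and 3 by DESeq2 (*GLDP1*, 0.48, edgeR adjusted p = 0.00926, lost without wild-type replicate 1) and *CA1* at 0.43 (adjusted p = 0.0520). The 7 root markers summed to 1360 to 1676 FPKM in nup50c and 1171 to 1286 in wild type, with 0 called by edgeR, 1 by DESeq2 and 2 at an unadjusted p under 0.05, *PYK10* having 0.31 (adjusted p = 0.118) and *BGLU22* 0.29 (adjusted p = 0.298). The seed storage genes *CRU3* and *SESA3* were at 0 in every library, and all 3 seed markers summed to 0 FPKM in nup50c and at most 0.486 in wild type.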

How the data were processed

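The authors deposited whole-number counts per gene and, in a separate table, FPKM; each file has 1 column per sample. Per the submitters' processing notes, HISAT2 2.0.4, HTSeq 0.6.1p1 and the build TAIR10 were used, with no role or order given. The sources used here do not say which program wrote either table, or which library total the FPKM use. Of 185190 count values 57420 are 0 and 40 are 1, and 1001 of the zeros stand beside an FPKM above 0, so a 0 was treated as possibly a failed estimate. Rows were matched by locus, 30645 of them to the TAIR10.1 annotation of RefSeq, which supplied names and positions.

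The count test was edgeR 4.0.16 in R 4.3.3, on all 21158 genes passing filterByExpr (at least 10 counts in enough libraries, 15 in total), with TMM scaling, the robust quasi-likelihood F test, no covariate and Benjamini-Hochberg adjustment over all genes. A gene was called at an adjusted p under 0.05. The biological coefficient of variation was 22%. Each SE comes from the moderated F statistic. The labels do not tell whether replicates were separate cultures. The p-values therefore reflect the spread of these 6 samples alone, and that spread may be technical. For pairs of libraries within a group, chi-square was 14.6 to 30.2 per gene, above counting noise, and all 6 were kept as separate samples. Alternatives were DESeq2 1.42.0, RLE scaling, other filters, limma 3.58.1 on log2 of the deposited FPKM plus 1 or 0.1 (genes with at least 0.5 FPKM in 3 libraries), a replicate block, each library left out and, added after seeing the data, 619 counts of 0 filled from the FPKM.

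The 9 genes and the lists were chosen with earlier results of these data known. Named are these genes, *NUP50C*, every called gene of each other list and, where fewer than 2 were called, those of smallest p up to 2, and for each of the 9 genes above 0 throughout the gene of most similar pattern. *DIN3*, *DIN4*, *DIN9*, *MCCB*, *BCAT1*, *KIN10*, *KIN11*, *BAM5*, *SAG13*, *LUX*, *ELF4*, *GI*, *PRR7* and *PRR9* were added after their values were seen. A gene that this rule would name is not reported here.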

Additional observations from a re-analysis of the deposited data

How the results depend on the processing

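Over all genes, 236 were called higher and 247 lower. The counts were 660 and 617 by DESeq2, 394 and 378 for genes that reach 10 counts in each library, and 398 and 380 for those above 0 in each. Without single libraries they ran from 43 to 172 higher and from 65 to 266 lower, with fewer calls by over 1.5 times in both directions without replicate 1 or 2 of either group, and 155 higher calls without wild-type replicate 3. Of the 9 genes, 1 was called higher, against 3 by DESeq2 (*DIN1*, *DIN10*, *MCCA*) and 0 to 3 without single libraries. The 1 called lower, *GPT2*, was not tested with either stricter filter, which leaves 0, and lost its call on log2(FPKM + 0.1) and with zeros filled from the FPKM, where 0 were called lower. Leaving out single libraries says nothing more of it, since its nup50c counts are all 0 (1 called lower each time). The 133 list genes gave 7 higher and 4 lower calls. The lower calls were 7 by DESeq2, and without single libraries the counts were 0 to 6 higher and 2 to 5 lower. The cause of these changes was not tested. Fewer genes enter the stricter filters, and fewer samples the left-out fits. Across all named and listed genes 0 calls reversed direction.

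Samples with the same number did not deviate together (correlations of -0.12 to -0.03, and 0 of 6 libraries correlated best with their own number), so the numbers were not taken as pairs. A replicate block left 12 higher and 19 lower calls over all genes, 1 higher (*DIN10*) and 0 lower among the 9 genes, and 1 higher and 0 lower among the list genes. At 2.03 to 8.96 CPM, *DIN11* had an SE of 0.50, against 0.11 for *DIN10* at 603 to 1273 CPM. The SE did not follow the level alone. *BCAT2*, at 2.41 to 6.85 CPM, had an SE of 0.28, and *DIN2*, at 5.17 to 12.1 CPM, one of 0.38.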

Other observations

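*SAG13*, listed among the dark and starvation genes, was at 2.03, 0 and 24.1 CPM in nup50c, against 53.6, 74.0 and 17.1 CPM in wild type. The groups overlapped, since the highest nup50c value exceeded the lowest wild-type one. Its log2 fold change of -2.48 (SE 1.69) did not pass (edgeR adjusted p = 0.573). *BCAT5* overlaps AT5G65770 on the same strand, and the count table gives its row the symbol *LINC4*.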
